A study of Homo sapiens with 16 samples.

Results

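The response of 4 claudin-low breast cancer lines (HCC38 and the MDA-MB lines 157, 231 and 436) to topsentinol L trisulfate (TLT) was examined by setting each TLT library against the DMSO library of the same line. These 8 libraries were chosen by cell line and treatment out of 16, and the other 8 come from 4 basal-like lines. TLT is a sterol with sulfate groups isolated from a marine sponge of the genus Topsentia. Cells were exposed for 6 h to TLT or to DMSO, the solvent, and the labels state the TLT dose as the EC75 without a concentration. Each line gave 1 TLT and 1 DMSO library, so the 4 lines are the replicates and no p-value below describes the spread between cultures of a single line. HCC38 was sequenced in another lane than the 3 MDA-MB lines, and both libraries of a line shared a lane. The subtype of each line is the one listed by the study and is not part of the sample labels.

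Claudin-low tumors are poorly differentiated breast cancers that express little of the claudins and other proteins that hold epithelial cells together and much of the mesenchymal genes. Cells answer growth factors, membrane injury and many toxic agents within minutes to hours by transcribing immediate early genes, whose products, such as the AP-1 transcription factors, then set later gene programs. Cells that lack free sterol activate SREBP2, a membrane-bound factor that raises the enzymes of cholesterol synthesis.

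The values are gene estimates divided by the upper quartile of each library, so that the 75th percentile of the nonzero genes lies near 1000. The depth was estimated at 10.6 to 18.2 (in units of 1e6 reads) in the TLT libraries and at 12.2 to 16.1 in the DMSO libraries. The sum of values stood apart in MDA-MB-157, with 21080423 in TLT against 16708305 in DMSO, and the median change of all genes was also largest there, at 0.22 on the log2 scale, against -0.03 in HCC38, -0.02 in MDA-MB-231 and 0.09 in MDA-MB-436. The label was checked in the DMSO libraries. CDH1, the main epithelial cadherin, was at 0 to 26.0 in the claudin-low lines and at 14.2 to 15200 in the basal-like lines, and the claudin gene CLDN3 was at 4.65 to 58.7 in the claudin-low lines and at 0 to 361 in the basal-like lines. VIM, the mesenchymal filament protein, spanned 4440 to 72400 in the claudin-low lines and 246 to 28200 in the basal-like lines. The claudin-low lines were thus low in CDH1 and high in VIM, but the ranges overlapped with those of the basal-like lines. The mesenchymal genes ZEB1, SNAI2 and TWIST1 also had their highest values in claudin-low lines, but FN1 and CDH2 had theirs in basal-like lines. FN1 was at 1350 to 15600 in the claudin-low and 664 to 110000 in the basal-like lines, and CDH2 at 104 to 1700 and 8.18 to 7060. CLDN4 (574) and CLDN7 (107) were not near 0 in MDA-MB-231.

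TLT moved a small set of genes in the same direction in all 4 claudin-low lines. The rises included PYGM, which was low with DMSO, and the immediate early genes ARC, FOSB and NR4A1. Among genes with a mean of at least 100, the falls included LOH12CR1, CCDC71 and SALL2. Of 14320 genes whose mean over the 8 libraries was at least 10, 105 (0.733%) were higher and 46 (0.321%) were lower with TLT at an adjusted p under 0.05 from limma with the line as a block, and all 151 had 1 sign in the 4 lines. Over all genes tested, 2167 (15.1%) were higher and 1620 (11.3%) were lower in each of the 4 lines. By size alone, 177 genes (1.24%) were higher and 99 (0.691%) were lower by 1.5 times or more in each line, and 74 and 32 of these were among the called genes. The called rises ran from 0.55 to 4.72 on the log2(value + 1) scale and the called falls from -0.68 to -3.37, while the median of all genes was 0.04. These are bulk libraries, in which fewer cells of a type and less RNA per cell cannot be told apart.

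The number of calls rested on which lines took part. It was 6 when MDA-MB-436 was left out, 95 without MDA-MB-231, 339 without HCC38 and 1280 without MDA-MB-157. The 6 genes still called without MDA-MB-436 were PYGM, ITGAM, KIAA0907, FNDC7, BAAT and NPC1L1. With libraries rescaled by the median ratio, 43 genes were higher and 11 lower, so the share of rises was 79.6% in place of 69.5%. With libraries rescaled to equal sums, 5 genes were higher and 0 lower. Each of the 151 genes that could be fitted kept its sign in every other setting tried, with each line left out as well. Among the 151 genes the change was smallest in HCC38 for 55, in MDA-MB-157 for 44, in MDA-MB-231 for 42 and in MDA-MB-436 for 10, and it was largest in MDA-MB-436 for 68. Across all genes the changes of MDA-MB-157 and MDA-MB-436 went together most, with r = 0.46, and those of HCC38 and MDA-MB-157 least, with r = 0.06, over 14320 genes that are not independent of one another.

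**Figure D1:**
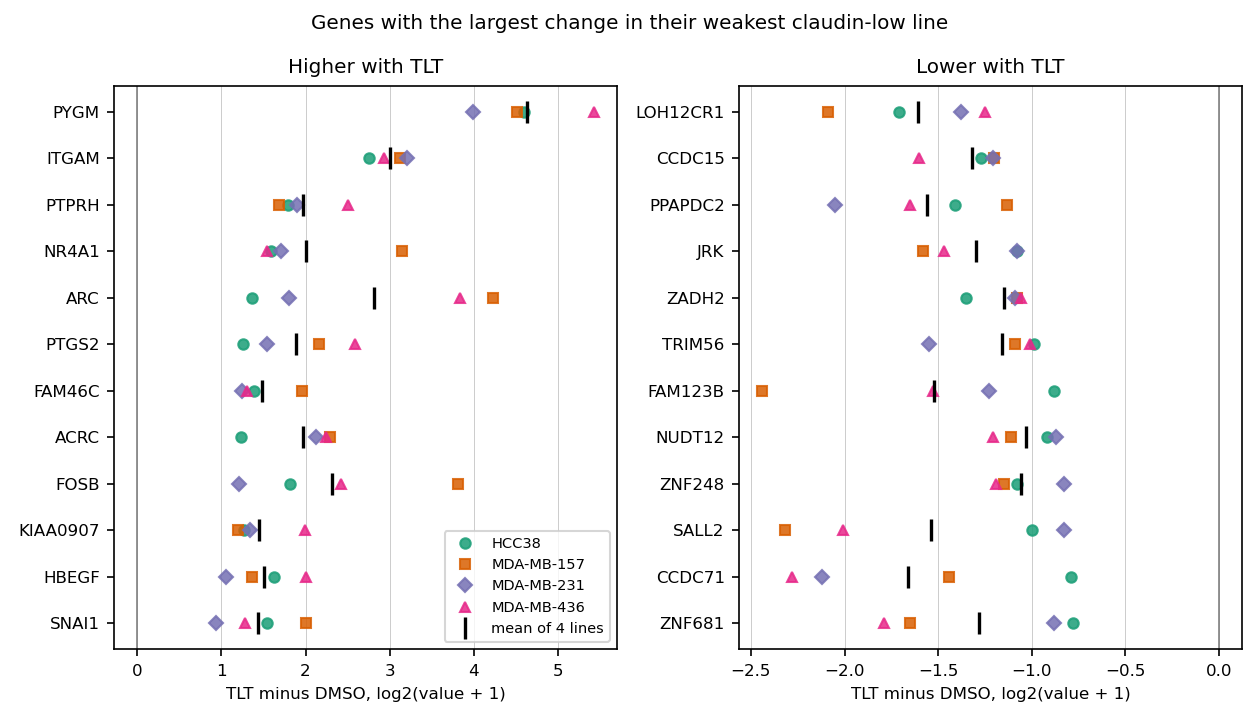
TLT minus DMSO on the log2(value + 1) scale in each of the 4 claudin-low lines, for the 12 called genes with the largest rise and the 12 with the largest fall in their weakest line, among genes with a mean of at least 100. TLT values count toward the mean of 100, and PYGM had a DMSO mean of 10.9. Symbols are lines and bars are means of the 4 lines. PYGM changed by 3.99 to 5.43 in every line, and no line of any gene crosses 0.

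PYGM, the muscle glycogen phosphorylase, rose most among the genes with a mean of at least 100. It lies on chromosome 11 of GRCh37 from 64513861 to 64527446 on the minus strand. PYGM had 80.0, 391, 255 and 471 in the TLT libraries of HCC38 and then of MDA-MB-157, of MDA-MB-231 and of MDA-MB-436, against 2.36, 16.3, 15.1 and 9.98 in their DMSO libraries. Every TLT library was above every DMSO library, and the log2 difference was 4.63 (SE 0.31, adjusted p = 0.000128 from limma). ITGAM, the alpha chain of a leukocyte integrin, had 13.7, 341, 31.3 and 463 in TLT, against 1.18, 38.3, 2.51 and 59.9 in DMSO, in the same order of lines. The groups overlapped, but the change was close to equal in the 4 lines, at 2.75, 3.12, 3.20 and 2.93. MRC1, the macrophage mannose receptor, rose by 3.10 on the log2 scale, and its reads may be shared with a near-identical copy. ITGAM and MRC1 belong to a list of 17 blood and immune cell markers, of which 5 could be tested and 4 were higher in all 4 lines. Testing took the mean over TLT and DMSO, so a gene low with DMSO could enter only by rising, and these counts lean to rises. MRC1 entered in this way, with a mean of 5.95 in DMSO and 70.1 in TLT. With a filter on the DMSO mean, 1 gene of the list was called in place of 2. The summed level of that list was 333 to 4036 in TLT and 272 to 2867 in DMSO, and PTPRC, HBB and CD3E, which define blood cells, were at 0 in the 4 DMSO libraries, with PTPRC at most at 1.20 and HBB and CD3E at 0 in the TLT libraries. The part of such cells in these rises was not tested.

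Other members of this leading set have roles in signalling and RNA. PTPRH, a receptor tyrosine phosphatase, rose by 1.97, and PTGS2, the inducible cyclooxygenase that makes prostaglandin precursors, by 1.89. FAM46C (now TENT5C), a poly(A) polymerase, was at 873, 486, 610 and 283 with TLT, against 333, 124, 255 and 114 with DMSO, a log2 difference of 1.48 (SE 0.20, adjusted p = 0.0115 from limma). KIAA0907 (now KHDC4), an RNA-binding protein with a KH domain, had 1985, 3575, 2538 and 4861 with TLT, against 824, 1553, 1001 and 1221 with DMSO. All 4 TLT values of KIAA0907 lay above all 4 DMSO values, and the log2 difference was 1.45 (SE 0.15, adjusted p = 0.00339 from limma). ACRC (now GCNA) rose by 1.97 and SNAI1, the transcription factor that represses CDH1, by 1.44. SNAI1 was the only called member of 22 mesenchymal genes tested, of which 4 were higher and 1 was lower in all 4 lines, and CDH1 was at 4.82 to 25.1 in the TLT libraries, against 0 to 26.0 in the DMSO libraries.

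Among the lists with 10 or more genes tested, immediate early genes had the largest share of members higher in all 4 lines. Of 19 such genes outside the AP-1 family that could be tested, 14 (73.7%) were higher in all 4 lines, none was lower in all 4, and 6 were called (ARC, NR4A1, NR4A3, IER2, ZFP36 and HBEGF). Their median log2 difference was 0.90, with 1.0 in HCC38, 0.66 in MDA-MB-157, 0.37 in MDA-MB-231 and 1.35 in MDA-MB-436. Without MDA-MB-436 none of the list was called, and without MDA-MB-157, MDA-MB-231 and HCC38 the numbers called were 11, 8 and 7. With libraries scaled to equal sums, which moved the median of all genes by -0.16, the list median was 0.74 and 10 of its genes were higher in all 4 lines. The number called was 4 with median ratio scaling, 0 with equal sums, 0 without the trend and 1 with a pseudocount of 0.1. ARC, an activity-regulated gene best known in neurons, lies on chromosome 8 from 143692410 to 143695840. ARC had 1002, 4963, 286 and 8883 with TLT, against 387, 264, 81.7 and 619 with DMSO. The rise was 1.37 in HCC38 and 1.80 in MDA-MB-231 but 4.23 in MDA-MB-157 and 3.84 in MDA-MB-436, with a mean of 2.81 (SE 0.43, adjusted p = 0.0278 from limma). NR4A1, an orphan nuclear receptor, had 355, 933, 118 and 364 with TLT, against 117, 105, 35.2 and 125 with DMSO, a log2 difference of 2.0 (SE 0.29, adjusted p = 0.0146 from limma). MDA-MB-231 was the lowest library of NR4A1 in either treatment, and MDA-MB-157 had the largest change. The related receptor NR4A3 rose by 1.5, while NR4A2 had a mean of 1.77 that was not called (adjusted p = 0.0622 from limma) although it was higher by 1.02 or more in each line. ZFP36, which marks AU-rich mRNAs for decay, had 205, 277, 286 and 590 with TLT, against 56.7, 97.6, 175 and 204 with DMSO, without overlap. MYC and BTG2, at 0.00 and -0.04, and PHLDA1, at -0.26, were the members with no mean rise.

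Among 10 AP-1 genes tested, FOS, FOSB, JUNB and ATF3 were called higher and none lower, and these 4 were also the only members of 1 sign in all 4 lines. FOSB had 269, 987, 213 and 357 with TLT, against 75.7, 69.7, 91.7 and 65.9 with DMSO, so the DMSO libraries were alike and every TLT library was above them. Its log2 difference was 2.31 (SE 0.36, adjusted p = 0.0251 from limma). FOS, its close relative, had 120, 1291, 337 and 1005 with TLT, against 33.1, 166, 185 and 181 with DMSO, with changes of 1.83, 2.95, 0.86 and 2.47. JUNB, a dimer partner of both, had 1057, 1310, 1368 and 6143 with TLT, against 580, 720, 579 and 3193 with DMSO. The JUNB change was the most even of the group, at 0.86, 0.86, 1.24 and 0.94 (SE 0.13, adjusted p = 0.0126 from limma). JUN itself was at -0.80, 0.40, -0.41 and 0.99 and FOSL1 at 1.49, -0.05, -0.31 and 0.79, so neither had 1 sign. Without MDA-MB-436 no AP-1 gene was called. The number called was 3 with median ratio scaling and 0 with equal sums, without the trend or with a pseudocount of 0.1.

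**Figure D2:**
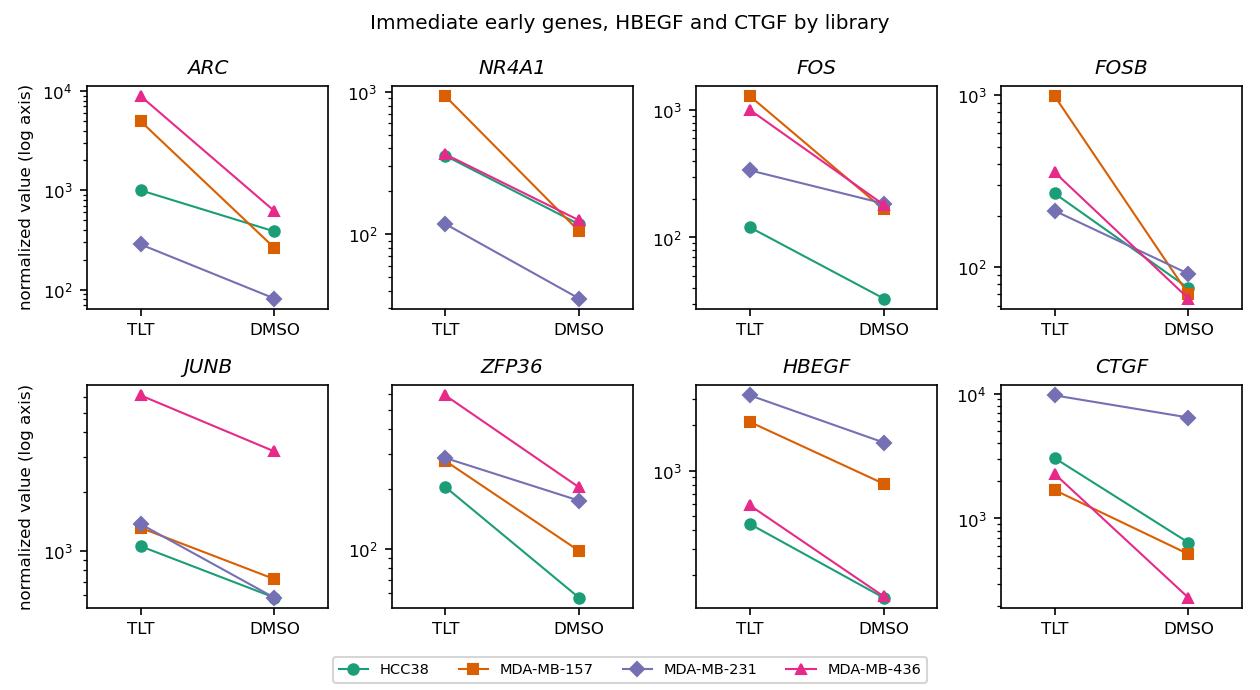
Normalized values of 8 called genes in each TLT library (left of each panel) and the DMSO library of the same line (right), on log axes with a scale for each gene. Lines join libraries of a cell line. Every line slopes down to DMSO, and CTGF in MDA-MB-231 (9686 against 6438) changes least.

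Single genes of growth factor and kinase signalling were also called. HBEGF, a ligand of the EGF receptor, lies on chromosome 5 from 139712428 to 139726188 and had 440, 2108, 3174 and 586 with TLT, against 142, 817, 1538 and 145 with DMSO. Each line changed by at least 1.05, and the log2 difference was 1.51 (SE 0.18, adjusted p = 0.00562 from limma). ERRFI1, a feedback inhibitor of the EGF receptor, rose by 1.16. Of 11 genes tested in a list of ERBB receptors, their ligands and ERRFI1, 4 were higher and 1 was lower in all 4 lines. HBEGF and ERRFI1 were called, and EREG, another ligand, was at 2.48, 2.05, 0.14 and 1.81 without being called (adjusted p = 0.0714 from limma). Of 16 genes read as ERK output, the basic leucine zipper factor MAFF and the ephrin receptor EPHA2 rose, by 1.4 and 0.90. MAP2K3, the kinase that activates p38, rose by 0.90, with 0.19 in MDA-MB-157 and 0.94 to 1.33 in the other lines, and was the only called gene of 15 on the p38 pathway. The study followed the phosphorylation of p38, CHK1 and AMPK, which mRNA levels do not measure. The genes of these proteins did not pass the test. MAPK14, which codes for p38 alpha, was at -0.30, CHEK1 at -0.05, and the AMPK catalytic subunits PRKAA1 and PRKAA2 at -0.16 and -0.34, all on the log2 scale and with adjusted p = 0.359 to 0.872 from limma.

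CTGF (now CCN2), a matricellular protein gene driven by YAP and TAZ through TEAD factors, lies on chromosome 6 of GRCh37 from 132269316 to 132272512. CTGF had 3045, 1688, 9686 and 2278 with TLT, against 641, 518, 6438 and 232 with DMSO, a log2 difference of 1.96 (SE 0.34, adjusted p = 0.0396 from limma). MDA-MB-231 was highest in both treatments and changed by 0.59, while MDA-MB-436 was lowest with DMSO and changed by 3.29. CTGF was the only called gene in a list of 24 YAP and TAZ targets and pathway members, which holds YAP1, WWTR1 and the TEAD and LATS genes. Of the list, 7 were higher and 4 lower in all 4 lines, and none was called without MDA-MB-436 or without HCC38. CYR61, a like gene, was at 2.07, 0.77, 0.03 and 1.65 (adjusted p = 0.096 from limma). Promoter windows of RefSeq on GRCh38.p14, from 250 bases before to 50 after the start, were searched on both strands for the TEAD motif CATTCC and the cAMP response element TGACGTCA, which do not overlap each other in the windows printed. The windows of CTGF and of the called genes EPHA2, MAFF and PPP1R15A are shown because they hold these motifs, which stand in capitals. They lie at chr6:131951323-131951622 on the minus strand, chr1:16156020-16156319 on the minus strand, chr22:38201744-38202043 on the plus strand and chr19:48872171-48872470 on the plus strand.
CTGF: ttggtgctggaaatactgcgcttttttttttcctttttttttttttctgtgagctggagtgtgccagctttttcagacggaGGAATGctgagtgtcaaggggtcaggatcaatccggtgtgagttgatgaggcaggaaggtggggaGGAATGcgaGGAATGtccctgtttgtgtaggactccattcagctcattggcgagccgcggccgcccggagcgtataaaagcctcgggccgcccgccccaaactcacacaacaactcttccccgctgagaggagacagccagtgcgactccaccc
EPHA2: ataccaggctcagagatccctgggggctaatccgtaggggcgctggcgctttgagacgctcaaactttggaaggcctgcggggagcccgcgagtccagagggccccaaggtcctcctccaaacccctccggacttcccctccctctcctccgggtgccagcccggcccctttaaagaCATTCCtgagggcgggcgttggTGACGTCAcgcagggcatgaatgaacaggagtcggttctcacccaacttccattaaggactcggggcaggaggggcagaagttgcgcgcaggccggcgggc
MAFF: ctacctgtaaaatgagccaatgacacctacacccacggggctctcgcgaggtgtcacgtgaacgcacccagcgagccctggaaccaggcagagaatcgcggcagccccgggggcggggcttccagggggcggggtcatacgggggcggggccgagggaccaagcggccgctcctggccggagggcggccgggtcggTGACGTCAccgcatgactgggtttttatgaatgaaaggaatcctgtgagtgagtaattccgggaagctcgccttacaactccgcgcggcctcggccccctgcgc
PPP1R15A: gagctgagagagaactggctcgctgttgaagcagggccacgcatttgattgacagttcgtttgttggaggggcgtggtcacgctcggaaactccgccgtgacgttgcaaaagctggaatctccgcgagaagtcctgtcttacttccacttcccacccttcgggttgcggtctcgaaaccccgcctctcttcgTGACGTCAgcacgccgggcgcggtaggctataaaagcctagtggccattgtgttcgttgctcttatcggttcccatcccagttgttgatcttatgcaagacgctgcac
The CTGF window holds the TEAD motif 3 times, read on the minus strand as GGAATG, with first bases at -169, -104 and -95 from the start. Of 18 genes of the YAP and TAZ list with a window, 7 (38.9%) hold the TEAD motif. The share was 14% of 27305 promoters and 10.7% of the 11028 promoters of tested genes. CTGF was the only one of the 7 that was called. The cAMP response element stood in 5 of the 52 windows matched to called rises with a mean of at least 100 (9.62%), namely PPP1R15A, EPHA2, UBAP1, MAFF and RBBP6, against 3.17% of tested genes and 1.98% of all promoters. In 12 matched windows of the other immediate early genes it was not found, and among 8 of AP-1 genes it stood in JUND alone. The CArG box, the binding sequence of SRF, stood in EGR1 and SRF among these 12, against 1.29% of all promoters. The sterol regulatory element TCACNCCAC stood in none of 15 windows of cholesterol genes, against 1.15% of all promoters. These matches describe the letters of the windows only.

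The cholesterol synthesis enzymes were higher in part. Of 20 tested, 7 were higher in all 4 lines and none was lower, and IDI1 and HMGCS1 were called. With equal sums 3 were higher in all 4 lines and the list median was 0.17 in place of 0.33. The number called was 1 with median ratio scaling, 0 with equal sums, 5 without MDA-MB-157, 3 without HCC38, 1 without MDA-MB-231 and 0 without MDA-MB-436, and HMGCS1 was called in 5 of 17 other settings. IDI1, an isomerase of isoprene units, had 2548, 5147, 7768 and 3312 with TLT, against 1669, 3232, 3876 and 1479 with DMSO, a log2 difference of 0.86 (SE 0.13, adjusted p = 0.0177 from limma). HMGCS1, which makes the precursor of mevalonate, changed by 0.25 in HCC38, 0.73 in MDA-MB-157, 1.28 in MDA-MB-231 and 1.5 in MDA-MB-436, with a mean of 0.94 (SE 0.19, adjusted p = 0.0471 from limma). The list median followed the same order of lines, at 0.04, 0.16, 0.37 and 0.60. INSIG1, the sterol-sensing brake on SREBP, was at 0.56, 0.14, 1.23 and 1.57 and was not called (adjusted p = 0.0785 from limma). Among 16 genes of SREBP control and sterol uptake only NPC1L1, the intestinal sterol transporter, was called, at 61.7, 245, 13.4 and 174 with TLT, against 7.09, 13.9, 1.26 and 9.98 with DMSO. NPC1L1 had a DMSO mean of 8.07 and so was tested only through its TLT values. With a filter on the DMSO mean, 0 genes of that list were called.

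Few stress and RNA processing genes were called. CDKN1A, the cell cycle inhibitor p21, had 6346, 5990, 4772 and 2449 with TLT, against 4307, 1969, 1558 and 502 with DMSO, with the smallest change, 0.56, in HCC38. It was the only called gene of 24 p53 targets, whose median was 0.03. ATF4, the transcription factor of the integrated stress response, had 8832, 9513, 8571 and 7927 with TLT, against 5443, 5446, 6127 and 4873 with DMSO, without overlap (log2 difference 0.67, SE 0.11, adjusted p = 0.0258 from limma). PPP1R15A, which reverses the translation block of that response, rose by 0.81, but among 24 ATF4 targets 5 were higher and 6 were lower in all 4 lines. PCF11 and RBBP6, both part of the machinery that cleaves mRNA 3′ ends, were the called members of 23. PCF11 had 1970, 4350, 2615 and 6282 with TLT, against 1381, 1712, 892 and 1302 with DMSO, and RBBP6 4665, 4321, 3516 and 6755 with TLT, against 2271, 3042, 1794 and 2405 with DMSO. In both genes all TLT libraries were above all DMSO libraries, with log2 differences of 1.42 and 1.0. CSTF2T, another member, was lower in all 4 lines at -0.31 to -2.19 and just missed the test (adjusted p = 0.051 from limma). MAP1LC3B, the autophagosome protein, and KLF5, a Kruppel-like factor, rose by 0.62 and 0.98.

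Genes of homologous recombination, which repairs broken DNA, and of the Fanconi pathway, which unhooks crosslinks, formed the list with the largest share of members lower in all 4 lines. Of 27 tested, 18 (66.7%) were lower in all 4 lines and none was higher in all 4, but only EME1 was called and 3 (FANCF, EME1 and RAD52) were lower by 1.5 times or more in each line. The list median was -0.36, with -0.28 in HCC38, -0.30 in MDA-MB-157, -0.50 in MDA-MB-231 and -0.25 in MDA-MB-436. The counts of 1 sign were 18 with median ratio scaling and 22 with equal sums. EME1, a subunit of a nuclease that cuts branched DNA, had 291, 186, 97.8 and 105 with TLT, against 540, 304, 226 and 243 with DMSO, a log2 difference of -1.0 (SE 0.20, adjusted p = 0.0474 from limma). FANCF, an adaptor of the Fanconi core complex, was at -0.79, -1.22, -0.86 and -1.4 (adjusted p = 0.0622 from limma), and RAD52 at -0.85, -1.28, -0.64 and -0.80 (adjusted p = 0.0904 from limma). BRCA1, at -0.59, -0.38, -0.42 and -0.16, BRCA2, at -0.35, -0.74, -0.11 and -0.47, and their bridge PALB2, at -0.56, -0.88, -0.53 and -0.44, were lower in each line without passing the test. RAD50 and RAD51C, at 0.17 and 0.18, were the only members with a mean above 0. The number called was 7 without MDA-MB-157, 1 without HCC38 and 0 without MDA-MB-231 or MDA-MB-436. It was also 0 with either other scaling, with no filter, with either other filter on the mean and without robust moderation, and EME1 was called in 4 of 17 other settings. On the ATR-CHK1 pathway, 6 of 25 genes were lower in all 4 lines, none was higher in all 4 and none was called. The kinase ATR was at -1.21, -0.26, -0.44 and -0.39, and RAD9A, of the checkpoint clamp, at -0.49, -0.88, -1.23 and -0.87 (adjusted p = 0.139 and 0.0714 from limma).

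**Figure D3:**
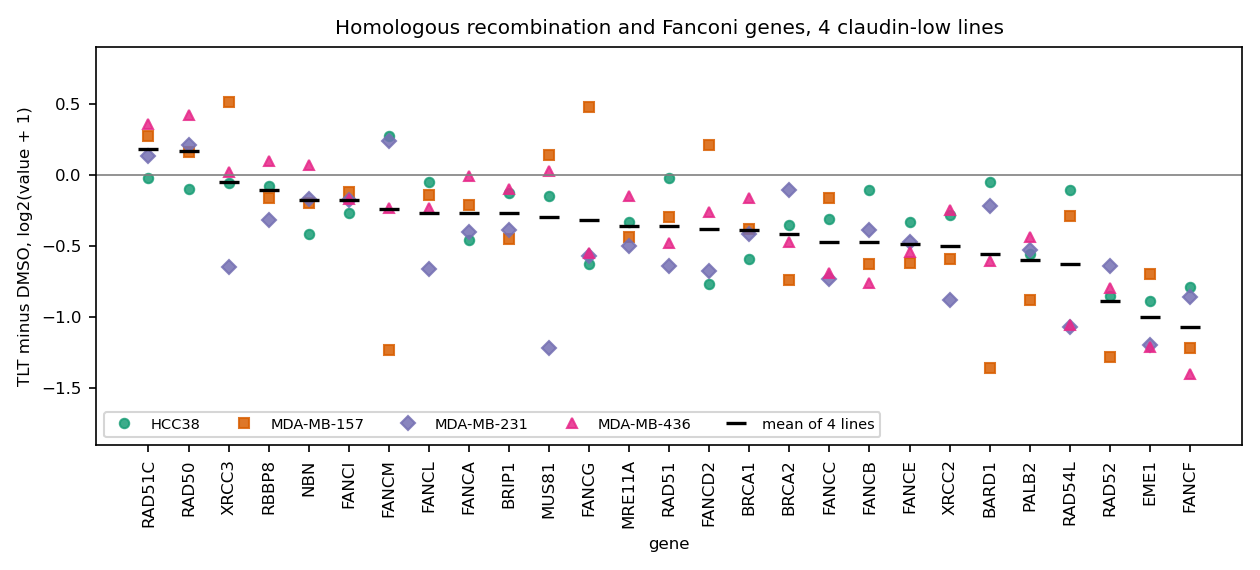
TLT minus DMSO on the log2(value + 1) scale of 27 homologous recombination and Fanconi genes in each claudin-low line (symbols), ordered by the mean of the 4 lines (bars). Means lie below 0 for all but RAD51C and RAD50, and FANCF, EME1 and RAD52 lie lowest.

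The called falls were led by genes of moderate level. LOH12CR1 (now BORCS5), a subunit of a complex that positions lysosomes, had 36.6, 10.4, 50.7 and 166 with TLT, against 122, 47.6, 133 and 398 with DMSO, a log2 difference of -1.61 (SE 0.26, adjusted p = 0.0243 from limma). JRK, on chromosome 8 from 143738874 to 143763386, had 163, 185, 151 and 523 with TLT, against 348, 558, 320 and 1446 with DMSO, a log2 difference of -1.30 (SE 0.19, adjusted p = 0.0146 from limma). In both genes MDA-MB-436 was highest in each treatment, and the groups overlapped. FAM123B (now AMER1), an inhibitor of WNT signalling, fell by 1.52, TRIM56, a ubiquitin ligase of antiviral signalling, by 1.16, and NUDT12, a NADH-cleaving hydrolase, by 1.03. CCDC15, PPAPDC2 (now PLPP6, a lipid phosphatase), ZADH2 (now PTGR3, a prostaglandin reductase), CCDC71 and the zinc finger transcription factor SALL2 fell by 1.32, 1.56, 1.15, 1.66 and 1.54. Zinc finger genes named ZNF made up 6 (13%) of the 46 called falls and 3.41% of the genes tested. Of 489 tested, 122 (24.9%) were lower and 13 were higher in all 4 lines. Their median was 0.06 in HCC38, -0.84 in MDA-MB-157, -0.09 in MDA-MB-231 and -0.29 in MDA-MB-436, so the list was mostly lower in 3 lines and not in HCC38. ZNF248 had 225, 70.6, 200 and 71.1 with TLT, against 476, 158, 357 and 164 with DMSO, and ZNF445, ZNF70 and ZNF681 fell by 1.26, 1.63 and 1.28. The number of called ZNF genes was 34 without MDA-MB-157, 20 without HCC38, 3 without MDA-MB-231 and 0 without MDA-MB-436, and it was also 0 with median ratio scaling, with equal sums, without the trend and with a pseudocount of 0.1. Among genes with a mean under 100, RBM43, WDR5B and GAB3 fell by 1.57, 1.59 and 2.25. RIMBP3 was at 0, 0, 24.0 and 19.3 with TLT, against 43.0, 24.1, 58.1 and 86.3 with DMSO, and may share reads with near-identical copies.

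In lists of core cell machinery no gene was called, and the list medians were above 0. Of 24 cytosolic ribosomal proteins, 13 were higher in all 4 lines, as were 14 of 29 proteasome subunits, 12 of 29 subunits of oxidative phosphorylation and 10 of 28 glycolysis and HIF1 genes, and none of these was lower in all 4 or called. Their medians were 0.28 for ribosomal proteins, 0.22 for the proteasome, 0.23 for oxidative phosphorylation and 0.30 for glycolysis, and each list had its largest median in MDA-MB-157 (0.40 to 0.67), the line whose median of all genes was also highest. With equal sums the medians were 0.12, 0.07, 0.07 and 0.14 and the numbers higher in all 4 lines 6, 5, 6 and 7, in that order. Across 49 lists, 28 of 1362 different genes tested were called higher and 7 lower. Over all 14320 genes tested, 0.733% were called higher and 0.321% lower. Before rescaling, 15.1% of them were higher in all 4 lines and 11.3% were lower.

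**Figure D4:**
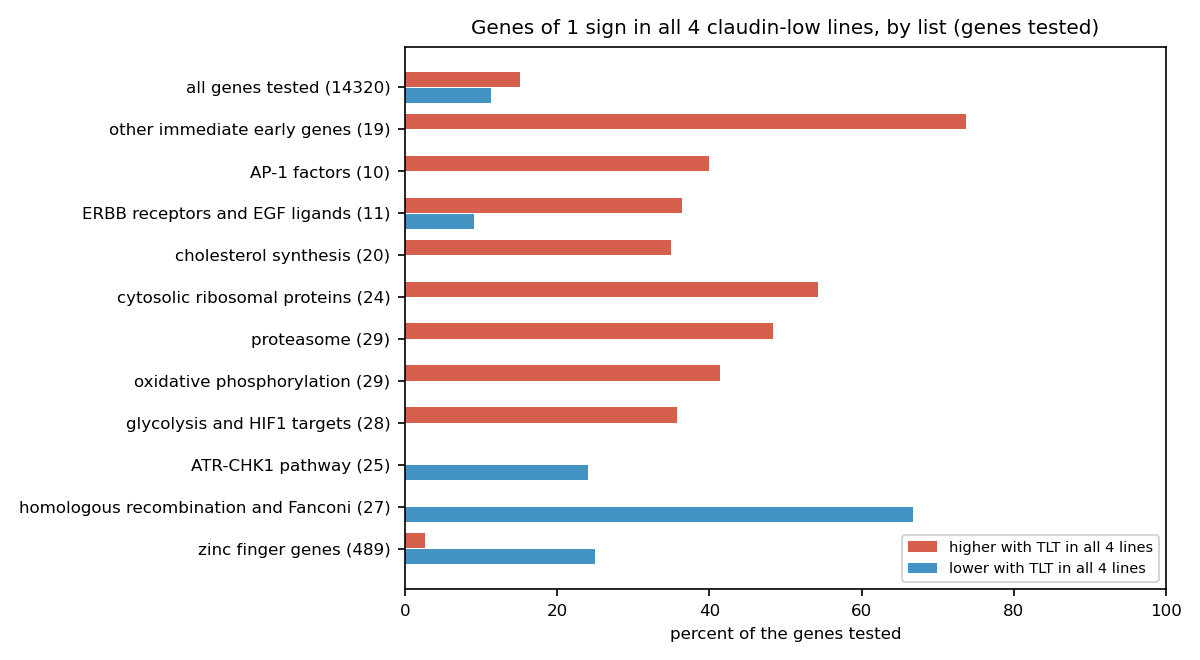
Percent of the tested genes of each list that were higher (red) or lower (blue) with TLT in all 4 claudin-low lines, with the number tested in brackets. The other immediate early genes reach 73.7% higher and the homologous recombination genes 66.7% lower, against 15.1% and 11.3% of all genes tested.

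Many of the called rises were in genes of low level. Of the 105 called rises, 43 had a mean under 100 over the 8 libraries and 25 had a DMSO mean under 10. These 25 reached the mean needed for testing by their TLT values alone, and a filter on the DMSO mean left 68 rises and 35 falls. FNDC7, on chromosome 1 of GRCh37 from 109255530 to 109285371, had 27.4, 81.0, 93.9 and 74.7 with TLT, against 1.18, 6.97, 0 and 0.998 with DMSO. BAAT, the enzyme that joins bile acids to amino acids, lies on chromosome 9 from 104116464 to 104147682 and had 29.7, 244, 56.6 and 145 with TLT, against 3.55, 25.6, 7.54 and 9.98 with DMSO. Of 41 called rises with a mean under 100 and a known position, 27 (65.9%) lie downstream of an active gene on the same strand. Active meant a DMSO mean of at least 500, and the window was 50 kb. The share was 22.9% of tested genes with a mean under 100 and 32.3% of called rises with a mean of at least 100. The low called rises had a median DMSO mean of 7.35, against 33.4 for the tested genes with a mean under 100. These 2 sets thus differ in DMSO level, and no share matched for that level is given. PYGM and ACRC, whose DMSO means were 10.9 and 52.6, passed a mean of 100 only through their TLT values. PYGM lies 4632 bases beyond SF1 and ACRC 2545 bases beyond OGT. BAAT lies 2.23 kb beyond MRPL50, FNDC7 9.98 kb beyond PRPF38B and NPC1L1 24.5 kb beyond DDX56. MRPL50, PRPF38B and DDX56 were at 0.04, 0.20 and -0.12 on the log2 scale, and none was called. MRC1 and ITGAM have no such neighbour within 50 kb. What links these genes to their neighbours was not tested.

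The basal-like lines HCC1143, HCC1395, HCC70 and MDA-MB-468 gave libraries that the fit above did not use. Of the 105 genes called higher in claudin-low lines, 99 were also higher in all 4 basal-like lines, as were 20.4% of all genes tested, and of the 46 called lower, 43 were lower in all 4, against 15.3% of all genes. The exceptions were THBS1, NOTCH3, PTGS2, FAM184B, C9orf152 and SLC13A3 among the rises and GAB3, ZNF215 and PXMP4 among the falls, named here after their values were seen. Some of them were near 0 in basal-like lines, where a change could hardly show. GAB3 had 0, 2.34 and 0.810 with DMSO in HCC1395, HCC70 and MDA-MB-468. PTGS2 had 0 with TLT and 0.810 with DMSO in MDA-MB-468, and ZNF215 changed by 0.0 in HCC70 and MDA-MB-468. The median change of the called rises was 1.54 in the claudin-low and 1.69 in the basal-like lines, and that of the called falls -1.19 and -1.12. A test of the difference between the subtypes, as the interaction in limma over all 16 libraries, called 0 of 14544 genes (0%). At an unadjusted p under 0.05 there were 272, fewer than an even spread of p-values would give. Thus no response is called particular to the claudin-low lines. The genes of smallest p are given as values. NOTCH3, a receptor of developmental signalling, was at 0.57, 0.95, 1.29 and 1.07 in the claudin-low lines and at 0.11, -0.01, 0.30 and 0.21 in the basal-like lines, a difference of 0.82 (SE 0.17, adjusted p = 1 from limma). GPR56, GRB7, HPCAL4 and PAK6 had differences of 0.77, 2.23, 2.19 and 1.5. SOX9, a factor of stem and progenitor cells, was at -0.29, -0.90, -0.48 and -1.17 in the claudin-low lines and at 0.45, 0.49, 0.31 and -0.17 in the basal-like lines. GTF2H2B, SAA2, THSD1 and ZFPM2 had differences of -3.97, -2.44, -2.92 and -2.35. The enzymes of cholesterol synthesis had a list median of 0.04 to 0.60 in the claudin-low lines and of 0.61 to 0.83 in the basal-like lines, and the difference was -0.75 for HMGCS1 and -0.49 for IDI1 (both adjusted p = 1 from limma).

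**Figure D5:**
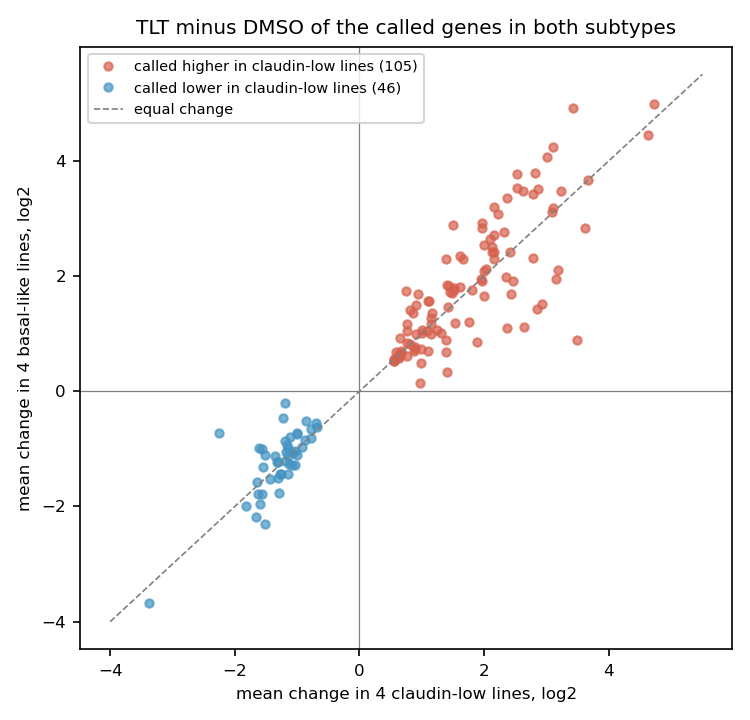
Mean change of the 151 genes called in the claudin-low lines, TLT minus DMSO on the log2(value + 1) scale, in the 4 claudin-low lines (horizontal) and in the 4 basal-like lines (vertical). The horizontal values chose the genes, and the vertical values did not. All genes lie on the same side of 0 in both, with medians of 1.69 and -1.12 on the vertical axis.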

How the data were processed

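Poly(A) RNA was sequenced as 50-cycle single reads, and the authors aligned them with MapSplice, estimated genes with RSEM on hg19 and deposited an upper-quartile normalized signal for each gene and library. Of 20531 rows, 29 without a gene name (0.0398% of the signal) were left out. A deposited table of the authors' fold changes was not used. The spacing of low values gave an estimate of depth, and 83.8% to 85.3% of these values came out whole within 0.01 reads in the 8 libraries, so no count test was run. Values were taken as log2(value + 1) for genes with a mean of at least 10, and limma 3.58.1 (R 4.3.3, trend and robust moderation) was fitted with the line as a block and p-values adjusted by Benjamini-Hochberg over all genes tested. A gene was called at an adjusted p under 0.05. Subtypes were compared by the interaction over all 16 libraries. An exact sign-flip test over 4 pairs cannot go below p = 0.125 (two-sided), so none is given.

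Libraries of a line deviated together, with r = 0.88 to 0.93 for the own line and at most -0.24 for any other, and the pairing comes from the cell line in the labels. Named genes were the 12 called genes with the largest change in their weakest line in each direction at a mean of at least 100, 4 in each direction below that mean, up to 3 called genes per list, 4 genes of proteins the study followed, and the 5 genes of smallest p in each direction of the subtype difference. Other list members were named after their values were seen. The lines, lists and tests were chosen with earlier results of these data known. Positions come from GENCODE mapped to GRCh37 and promoters from RefSeq on GRCh38.p14. Alternatives changed the block, the samples, the scaling, the filter, the pseudocount, the moderation and the threshold, and left out each line. The limma script was tested on simulated data. Python 3.11.15, pandas 2.3.3, numpy 2.4.6 and matplotlib 3.10.9 were used.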

Additional observations from a re-analysis of the deposited data

Results flagged for a closer look

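In 5 of 56 genes examined, a single line lay far from the other 3, where chance marks about 1 in 20 groups. NR4A1 changed by 3.15 in MDA-MB-157, and ACRC by 1.23, EPHA2 by 1.62 and ZADH2 by -1.35 in HCC38, all on the log2 scale. CCDC15 changed by -1.60 in MDA-MB-436. In 2 of the named genes every claudin-low line moved one way and every basal-like line the other, with a difference of 1.5 for PAK6 and -2.35 for ZFPM2. Both were named for the small p of this same difference, so the opposite signs are not a separate result. No share over all genes is given. Neither difference passed the interaction test in limma (adjusted p = 1 for each).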

How the results depend on the processing

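The replicate block decides the count of calls, since the fit with the line as a block called 151 genes (105 higher, 46 lower) and the unpaired fit called 0, with 103 at an unadjusted p under 0.05 in limma. All 16 libraries with a shared spread gave 402 (254 and 148), of which 400 had 1 sign in the 4 lines, median ratio scaling 54 (43 and 11), equal sums 5 (5 and 0), no trend 15 (13 and 2), a mean of at least 100 gave 76 (51 and 25), a filter on the DMSO mean 68 rises, a pseudocount of 0.1 gave 7 (7 and 0), a pseudocount of 10 gave 81 falls, an adjusted p under 0.01 gave 10 (10 and 0) and under 0.10 gave 466 (275 and 191, 461 of 1 sign). Leaving out each line gave 6 to 1280 calls, 6 to 700 rises and 0 to 580 falls. The 276 genes changed by 1.5 times or more in each line became 100 at a mean of at least 100, 153 with a pseudocount of 10 and 319 to 629 with a line left out. The 35 called genes of the lists became 0 without the block, 57 with all libraries, 17 with median ratios, 2 with equal sums, 3 without the trend and with a pseudocount of 0.1, 4 and 84 at the stricter and looser threshold, and 2 to 169 with a line left out. The 52 called named genes became 0, 33, 4, 7, 6 and 8 without the block, with median ratios, with equal sums, without the trend, with a pseudocount of 0.1 and at an adjusted p under 0.01, and 6 to 48 with a line left out. CHEK1, not called, was at -0.13 to 0.02 with a line left out, above 0 only without MDA-MB-157. The subtype test called 0 genes in limma under every alternative. At least 1 of the other scalings turned the sign of the median of 16 of 49 lists. The causes were not tested. With 1 library per line and treatment, the spread between cultures of a line is not measured.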
